A study of Mus musculus with 6 samples.

Results

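Genes that mark cortical interneurons and make or load the transmitter GABA were examined in the cortex of mice 14 days after stroke. The 10 genes were chosen by name as interneuron peptide genes (Sst, Npy, Vip and Cck), calcium-binding protein genes (Pvalb and Calb2), GABA synthesis and vesicle loading genes (Gad1, Gad2 and Slc32a1) and an interneuron transcription factor gene (Lhx6). They are 10 of the 24553 entries in the count table after transcript rows were summed by gene symbol, with rows without a symbol kept as separate entries. The animals were male C57BL/6J mice aged 15 weeks, with 3 libraries from mice given short-chain fatty acids (SCFA), products of bacterial fermentation in the gut, and 3 libraries from mice given a salt-matched control. In both groups the drinking water also held antibiotics (vancomycin, ampicillin, neomycin and metronidazole) and 5% sucrose. The mice drank SCFA or the control salts for 4 weeks, beginning when they were 6 to 8 weeks old. No label states which hemisphere was taken or how far from the lesion. Libraries are treated as separate animals, since the design gives n = 3 for both groups, and p-values measure the spread between these libraries.

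Cortical interneurons are the inhibitory neurons of the cortex. They make GABA from glutamate with 2 glutamate decarboxylases, GAD67 and GAD65, and load it into synaptic vesicles through the vesicular transporter VGAT. Most cortical interneurons fall into classes marked by parvalbumin, by somatostatin or by the serotonin receptor subunit gene Htr3a, and cells of the last class can carry vasoactive intestinal peptide, calretinin or cholecystokinin. Projection neurons of the striatum, which lies beneath the cortex, also use GABA, and the striatum holds its own interneurons with somatostatin and neuropeptide Y.

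Total counts ran from 9275252 to 13862756 per library, and 35.0% to 55.3% of them fell in a single row without a gene symbol. This row was kept as an entry in the main test. Its share was lowest in SCFA 2 (35.0%) and highest in control 2 (55.3%). Control 2 stood apart on the first principal component, at 109.2 where the other 5 libraries lay between -25.77 and -17.74. SCFA 2 stood apart on the second, at -51.59 where the others lay between -9.537 and 30.74. These components carried 50% and 15.3% of the spread between libraries. Control 2 also had the fewest transcript rows with any count, 13600, where the others had 15988 to 16941. The TMM factor, which scales the library size, was lowest in control 2 (0.7612) and highest in SCFA 2 (1.216). The defining genes of cortical glutamatergic neurons were present in all libraries, with the vesicular glutamate transporter gene Slc17a7 at 864, 966 and 961 CPM (counts scaled to library size, with TMM factors) in SCFA 1 to 3 and 722, 663 and 886 CPM in controls 1 to 3. Striatal projection neuron genes were not even: their summed level was 75.1, 416 and 85.1 CPM in SCFA 1 to 3 and 141, 91.7 and 74.1 CPM in controls 1 to 3. SCFA 2 was thus the library with the highest summed level of striatal genes.

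Of the 10 genes, 7 had enough counts to be tested, from 496 counts in all 6 libraries for Calb2 to 8017 for Gad2. With SCFA 0 of the 7 were called higher and 0 lower, at adjusted p from 0.864 to 0.975 (edgeR quasi-likelihood F test). Of all 11969 tested genes 0.00835% were called higher and 0.0752% lower, 0.0835% in either direction. At an unadjusted p under 0.05 there was 1 gene higher, Slc32a1, and 0 lower, against 2.97% and 2.79% of all tested genes (5.76% in either direction). Without SCFA 2, 0 of the 7 were higher at that level, with Slc32a1 at an unadjusted p of 0.134 (edgeR). DESeq2 and limma-voom also called 0 of the 7. The fitted log2 fold change, SCFA over control, was above 0 in 5 of the 7 and below 0 in Gad1 and Gad2, and its median was 0.30, beside 0.01 over all tested genes. In 0 of the 7 did the CPM values of the groups separate, where 12.2% of all tested genes separated in either direction. The highest level lay in SCFA 2 for 5 of the 7, against 20.4% of all tested genes, and the lowest lay in SCFA 2 for 1, Pvalb, against 18.7%. Without SCFA 2 the median was 0.21. In bulk tissue, fewer cells of a type and less RNA per cell cannot be told apart.

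**Figure D1:**
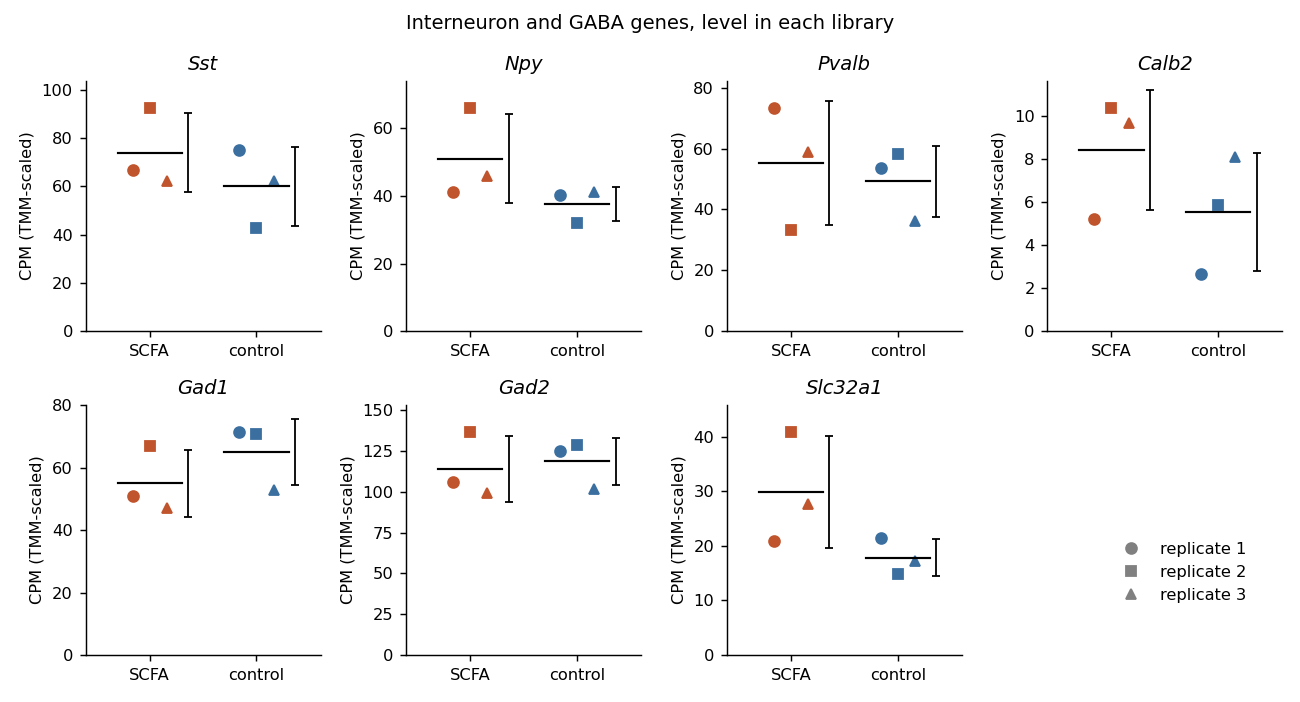
Level of the 7 tested genes in CPM (y axis, TMM-scaled, from 0), with SCFA libraries on the left and controls on the right of each panel; points are libraries (the marker shape gives the replicate), the horizontal line is the mean and the bar beside it ±1 SD (n = 3). The groups overlap in each panel, and SCFA 2 (square) is highest for Sst, Npy, Calb2, Gad2 and Slc32a1 and lowest for Pvalb.

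Sst, Npy and Slc32a1 shared a pattern over the libraries, with the highest level in SCFA 2 and the lowest in control 2, a pattern held by 8.14% of all tested genes. Control 2 alone was lowest in 30.8% of them. The 250 bases before their transcript starts are shown because these 3 genes share their highest and their lowest library, though not the order of the other 4. They are given 5′ to 3′ on the coding strand, from RefSeq on GRCm38.p6. Capitals mark TGACGTCA, the cAMP response element (CRE) for which the somatostatin promoter is known, searched on both strands. The Sst window is chr16:23890845-23891094 on the minus strand, the Npy window chr6:49822460-49822709 on the plus strand and the Slc32a1 window chr2:158610508-158610757 on the plus strand.
Sst: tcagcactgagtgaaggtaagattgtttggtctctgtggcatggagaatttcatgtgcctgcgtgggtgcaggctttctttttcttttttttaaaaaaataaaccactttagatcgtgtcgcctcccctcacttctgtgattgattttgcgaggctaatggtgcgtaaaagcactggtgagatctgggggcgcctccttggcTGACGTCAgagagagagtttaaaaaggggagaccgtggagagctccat
Npy: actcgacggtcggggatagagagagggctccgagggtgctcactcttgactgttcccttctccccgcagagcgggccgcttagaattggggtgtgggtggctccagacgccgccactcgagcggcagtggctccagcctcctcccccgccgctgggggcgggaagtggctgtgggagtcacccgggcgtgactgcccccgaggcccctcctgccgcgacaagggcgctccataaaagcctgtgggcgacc
Slc32a1: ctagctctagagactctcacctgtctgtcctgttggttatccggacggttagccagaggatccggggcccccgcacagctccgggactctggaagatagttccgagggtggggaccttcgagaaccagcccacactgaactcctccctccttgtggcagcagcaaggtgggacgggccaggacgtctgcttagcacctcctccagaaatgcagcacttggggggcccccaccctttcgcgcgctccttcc
The element stood once in the Sst window, beginning 48 bases before the start, and in 1.55% of the 32851 promoter windows of the same length. The windows of Npy and Slc32a1 did not hold these letters. The GC content was 47.2% for Sst, 69.2% for Npy and 62.4% for Slc32a1. These matches describe the sequence and were not set against any binding data.

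Slc32a1 (chromosome 2, 158607260 to 158615747, GRCm38), which encodes the vesicular GABA transporter VGAT, had the largest log2 fold change of the 7. It had 200, 597 and 372 counts in SCFA 1 to 3 and 266, 129 and 172 counts in controls 1 to 3. This came to 20.9, 41.0 and 27.7 CPM in SCFA 1 to 3 and to 21.5, 14.9 and 17.2 CPM in controls 1 to 3. SCFA 2 and SCFA 3 lay above all controls, and SCFA 1 lay just below control 1. The mean was 29.9 ± 10.3 CPM with SCFA and 17.9 ± 3.38 CPM in controls (SD, n = 3 each), and the fitted log2 fold change was 0.74 (SE 0.276, 95% interval 0.15 to 1.34). Its unadjusted p of 0.0186 did not pass over all genes (edgeR, adjusted p = 0.864). Without SCFA 2 the log2 fold change was 0.45, and without both SCFA 2 and control 2 it was 0.33. The long noncoding RNA gene Gm14204 overlaps the Slc32a1 gene model but ends at 158610723, within the promoter window and ahead of the counted Slc32a1 transcript, and had 314 counts in the 6 libraries.

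The fold changes of the glutamate decarboxylase genes were below 0, though that of Gad2 changed sign with the scaling (0.14 with total counts) and without SCFA 3 (0.04). Without SCFA 2 that of Gad2 was -0.20. Gad2 (chromosome 2, 22621015 to 22693877) encodes GAD65, the form attached to synaptic vesicles. It measured 106, 137 and 99.4 CPM in SCFA 1 to 3 and 125, 129 and 102 CPM in controls 1 to 3. The groups covered nearly the same range, and the log2 fold change was -0.06 (SE 0.166, 95% interval -0.41 to 0.30, adjusted p = 0.975). Gad1 (chromosome 2, 70561303 to 70602014) encodes GAD67, which makes most of the GABA in the brain. It measured 50.9, 67.1 and 47.0 CPM in SCFA 1 to 3 and 71.6, 70.8 and 53.0 CPM in controls 1 to 3. SCFA 1 and SCFA 3 lay below all controls and SCFA 2 between controls 3 and 2, and the log2 fold change was -0.24 (SE 0.193, 95% interval -0.66 to 0.17, adjusted p = 0.91). Without SCFA 2 it was -0.41, the lowest value among the 6 fits that each left out 1 library. The long noncoding RNA gene Gad1os overlaps Gad1 and had 31 counts in the 6 libraries, beside 4122 for Gad1, and reads from shared bases cannot be assigned without a known strand setting.

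**Figure D2:**
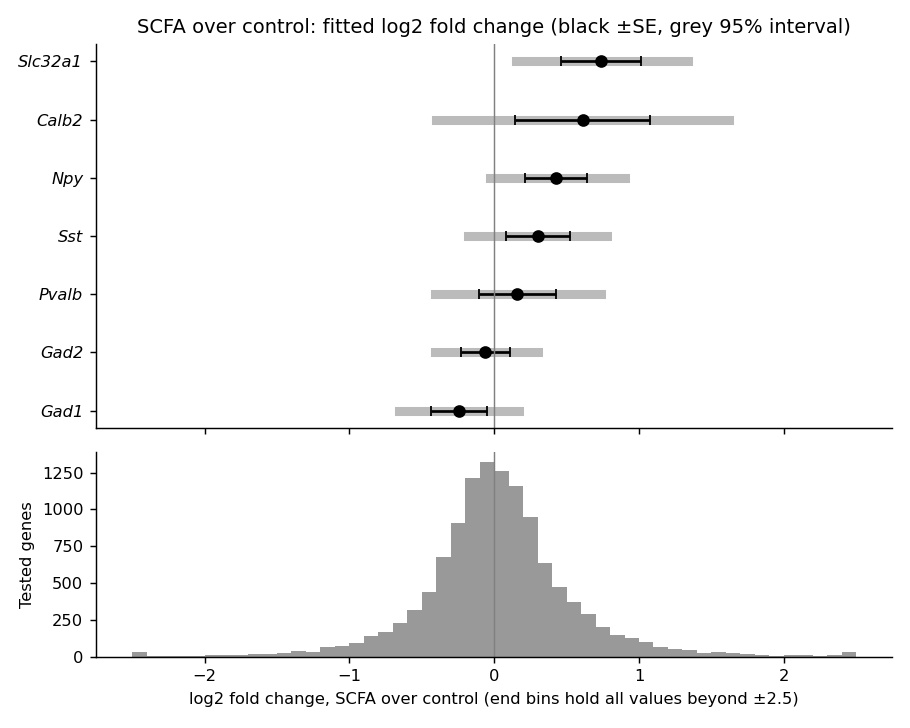
Fitted log2 fold change, SCFA over control, of the 7 tested genes (top; black points with SE, grey bars the 95% interval) above the distribution over all 11969 tested genes (bottom; number of genes per bin). Slc32a1 is the only one of the 7 whose unadjusted interval lies wholly above 0 (0.15 to 1.34), and Gad2 lies closest to 0, at -0.06.

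Each gene was also counted against Gad2 within its own library, which needs no scaling between libraries. This ratio was chosen after the values above had been seen and is given with no test. Slc32a1 had 19.7, 30.0 and 27.9 counts per 100 Gad2 counts in SCFA 1 to 3, and 17.3, 11.6 and 16.8 in controls 1 to 3. Each SCFA library lay above each control, although the counting intervals of SCFA 1 (16.8 to 23.0, exact 95%) and control 1 (15.1 to 19.7) overlapped. The mean was 25.9 ± 5.45 with SCFA and 15.2 ± 3.16 in controls (SD, n = 3 each), 1.70 times higher as a geometric mean, or 0.77 on the log2 scale. It was 0.65 on that scale without SCFA 2, 0.58 without control 2 and 0.46 without SCFA 2 and control 2. Gad1 had 48.0, 49.1 and 47.3 counts per 100 Gad2 counts in SCFA 1 to 3, and 57.4, 55.1 and 51.7 in controls 1 to 3, so that each SCFA library lay below each control by a small step (log2 difference -0.18, and -0.20 without SCFA 2). Sst had 63.0, 67.7 and 62.6 in SCFA 1 to 3 and 60.1, 33.2 and 60.8 in controls 1 to 3. There the groups separated too, but the log2 difference of 0.38 became 0.09 without control 2. Over all tested genes, counts per Gad2 count separated the groups with SCFA higher in 6.31% and with SCFA lower in 2.49%. The ratios of Npy, Pvalb and Calb2 overlapped between the groups.

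**Figure D3:**
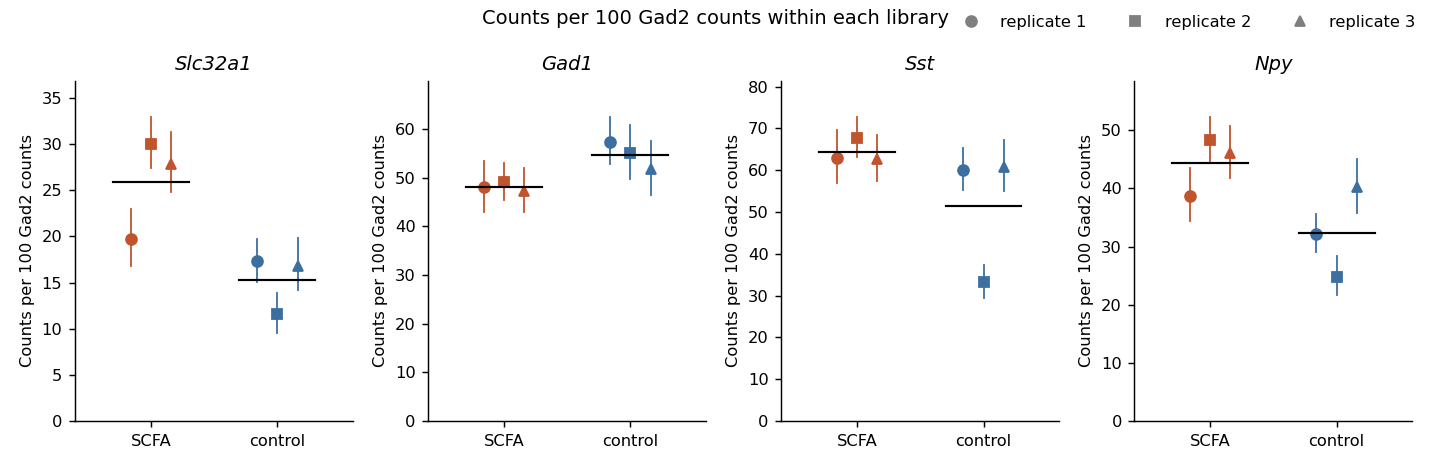
Counts of Slc32a1, Gad1, Sst and Npy per 100 Gad2 counts of the same library (y axis, from 0), SCFA on the left and controls on the right; points are libraries, vertical lines exact 95% counting intervals and horizontal lines group means. Slc32a1 lies at 19.7 to 30.0 in SCFA libraries and 11.6 to 17.3 in controls, and control 2 (square) is the low control for Slc32a1, Sst and Npy.

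Among the peptide genes, Sst (chromosome 16, 23889573 to 23891342) encodes somatostatin, the inhibitory peptide of dendrite-targeting interneurons. It measured 66.8, 92.5 and 62.2 CPM in SCFA 1 to 3 and 75.0, 42.6 and 62.3 CPM in controls 1 to 3. SCFA 2 was above and control 2 below the other 4 libraries, which lay between 62.2 and 75.0 CPM in both groups. The log2 fold change was 0.30 (SE 0.221, 95% interval -0.18 to 0.78, adjusted p = 0.902), 0.11 without SCFA 2, 0.11 without control 2 and -0.09 without both. Npy (chromosome 6, 49822710 to 49829507) encodes neuropeptide Y, a peptide of a subset of somatostatin cells and of neurogliaform cells. It had 393, 960 and 615 counts in SCFA 1 to 3 and 496, 277 and 411 counts in controls 1 to 3. On the scaled level this was 41.1, 66.0 and 45.8 CPM in SCFA 1 to 3 and 40.1, 31.9 and 41.1 CPM in controls 1 to 3. SCFA 1 lay level with control 3, and the other SCFA libraries lay above all controls. The log2 fold change was 0.43 (SE 0.214, 95% interval -0.03 to 0.90, adjusted p = 0.88), and it was 0.21 without SCFA 2 and 0.10 without SCFA 2 and control 2.

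Of the calcium-binding protein genes, Pvalb had its lowest level in SCFA 2 and Calb2 its highest. Pvalb (chromosome 15, 78191112 to 78206400) encodes parvalbumin, the marker of fast-spiking basket and chandelier cells. It measured 73.4, 33.3 and 59.0 CPM in SCFA 1 to 3 and 53.5, 58.1 and 36.1 CPM in controls 1 to 3. SCFA 2, highest for the peptide genes, was the lowest of all 6 libraries for Pvalb. The log2 fold change was 0.16 (SE 0.267, 95% interval -0.41 to 0.74, adjusted p = 0.96), 0.43 without SCFA 2, -0.09 without SCFA 1 and -0.01 without control 3, so that single libraries set its sign. Without both SCFA 2 and control 2 it was 0.56, at an unadjusted p of 0.01 and an adjusted p of 0.697 (edgeR). In that fit 699 of all 12139 tested genes had an unadjusted p under 0.05, and Slc32a1 had 0.216. Calb2 (chromosome 8, 110142526 to 110168212) encodes calretinin and was the least counted of the 7, with 50, 151 and 130 counts in SCFA 1 to 3 and 33, 51 and 81 counts in controls 1 to 3. This was 5.22, 10.4 and 9.68 CPM in SCFA 1 to 3 and 2.67, 5.88 and 8.11 CPM in controls 1 to 3. Both groups spread by about as much as they differed. The fitted log2 fold change was 0.61 (SE 0.469, 95% interval -0.40 to 1.62, adjusted p = 0.903), with 0.28 when control 1, 0.44 when SCFA 2, 0.86 when SCFA 1 and 1.0 when control 3 was left out.

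Vip, Cck and Lhx6 could not be compared. Vip (chromosome 10, 5639193 to 5647617), the gene of vasoactive intestinal peptide, and Lhx6 (chromosome 2, 36081950 to 36105992), a transcription factor gene of interneurons from the medial ganglionic eminence, had 0 counts in all 6 libraries. Cck (chromosome 9, 121489824 to 121495694), the cholecystokinin gene, which cortical pyramidal cells express as well, had 7, 8 and 2 counts in SCFA 1 to 3 and 4, 0 and 5 counts in controls 1 to 3. These 3 genes have several transcript rows in the table that share most or all of their exon bases. The 2 rows of Vip are paired with the same GENCODE transcript, of 1530 bases. In 3 of the 4 rows of Lhx6 every exon base is in another row, and in the remaining row 137 of 3378 bases (4.1%) are its own. The Cck row with 26 counts has 163 bases of its own and the row with 0 counts has 55. In contrast, the 6 genes with 1 row, Sst, Npy, Pvalb, Calb2, Gad2 and Slc32a1, had between 496 and 8017 counts. Gad1 showed both cases, with 4064 counts in a row with 2519 bases of its own and 58 counts in a row with 185. Among the 192 listed genes other than these 10, 10 of the 56 with several rows had no count in any library, as had 6 of the 136 with 1 row. The counts of 0 for Vip and Lhx6 are therefore not read as absence of the transcripts, and no limit on their level is drawn from them.

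**Figure D4:**
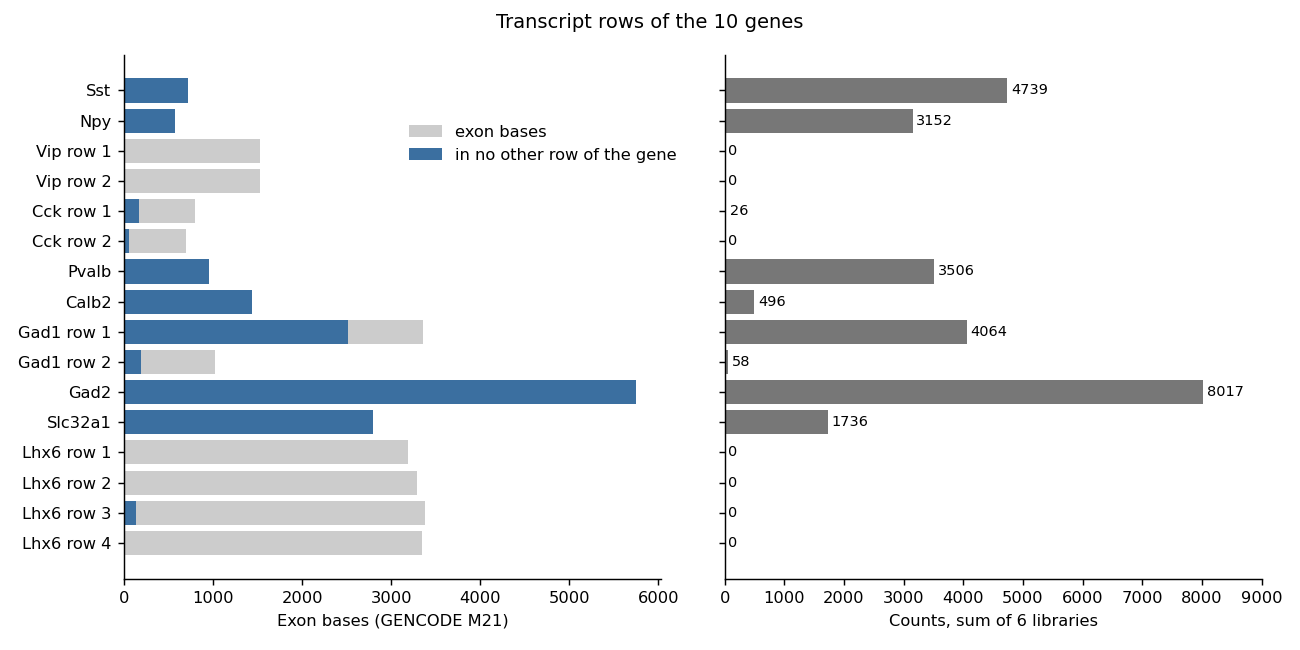
Transcript rows of the 10 genes, with exon bases on the left (grey; blue for bases in no other row of the same gene) and total counts of the 6 libraries on the right. The rows of Vip, Cck and Lhx6 hold 0 to 26 counts and the second row of Gad1 holds 58, where the genes with 1 row hold 496 to 8017.

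Levels per kilobase of exon put the 7 genes in an order that depends on the annotated exon lengths. These ran from 0.566 kilobases for Npy to 5.744 for Gad2, which had the highest mean CPM before division by length. Over the 6 libraries Sst averaged 92.8 ± 22.8 CPM per kilobase, Npy 78.3 ± 20.4 and Pvalb 54.8 ± 15.9 (SD, n = 6). The ranges of Sst and Npy overlapped, as did those of Npy and Pvalb, but Npy lay below Sst in all 6 libraries and Pvalb below Npy in 4 of 6. Gad2 followed at 20.2 ± 2.72 CPM per kilobase, and its highest library (23.8) lay below the lowest library of Pvalb (35.0). Gad1 averaged 17.0 ± 3.11, Slc32a1 8.54 ± 3.39 and Calb2 4.88 ± 2.05 CPM per kilobase. Each of these 3 overlapped its neighbour above in range and lay below it in all 6 libraries. The value of Gad1 uses all exon bases of its rows, of which those shared by its rows may hold uncounted reads, so its place below Gad2 is uncertain.

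Set against the pan-neuronal genes of each library, the groups overlapped in all 7 genes. The mean log2 CPM of 14 tested pan-neuronal genes, such as the microtubule protein gene Map2 and the synaptic vesicle gene Syp, was subtracted from that of each gene. The mean gave equal weight to Syt1, Elavl4 and Syn1, which have several rows each and only 213, 224 and 135 counts in the 6 libraries. Slc32a1 then averaged -1.62 ± 0.463 with SCFA and -2.19 ± 0.377 in controls (SD, n = 3 each), a difference of 0.57, and 0.35 without SCFA 2 (two-sided exact permutation test, p = 0.2, where 3 against 3 libraries cannot go below 0.1). Gad1 averaged -0.71 ± 0.188 with SCFA and -0.33 ± 0.301 in controls, a difference of -0.38 with the same exact p, and -0.49 without SCFA 2. The differences of the other 5 genes lay between -0.20 for Gad2 (-0.29 without SCFA 2) and 0.53 for Calb2, with exact p from 0.2 to 1, over 7 comparisons. With cortical glutamatergic genes instead of pan-neuronal genes, the difference was 0.57 for Slc32a1, -0.37 for Gad1 and -0.19 for Gad2.

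Lists of the other genes of the interneuron and GABA pathway were described in the same way, 84 genes in all. Of these 67 were tested, and 0 were called (edgeR; 3 higher, among them Cpe and Chga, and 0 lower at an unadjusted p under 0.05). Their median log2 fold change was 0.10, and in 7 the groups separated with SCFA higher and in 3 with SCFA lower, beside 6.42% and 5.74% of all tested genes. Among 17 tested interneuron markers, 8 lay above 0 and 9 below. Nos1, the neuronal nitric oxide synthase gene of long-range somatostatin cells, measured 27.8, 40.0 and 19.4 CPM in SCFA 1 to 3 and 18.2, 20.5 and 20.2 CPM in controls 1 to 3 (log2 fold change 0.57, adjusted p = 0.872). Erbb4, the neuregulin receptor gene of parvalbumin cells, measured 125, 102 and 123 CPM in SCFA 1 to 3 and 158, 136 and 140 CPM in controls 1 to 3. Each SCFA library lay below each control, and the log2 fold change of -0.31 (SE 0.148) did not pass (adjusted p = 0.876). Reln and Htr3a, each with 2 rows, stood at 0 in all libraries.

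Among 11 tested transcription factor genes of interneurons the median log2 fold change was 0.35, with 7 above 0 and 4 below. Of the 7 above 0, 6 had their lowest level in control 2, and without control 2 the median was -0.05, with 4 above 0 and 7 below. Without SCFA 2 it was 0.12. Npas1 measured 5.33, 6.46 and 4.54 CPM in SCFA 1 to 3 and 3.08, 2.07 and 3.90 CPM in controls 1 to 3, with each SCFA library above each control (log2 fold change 0.85, SE 0.505, adjusted p = 0.889).

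For GABA transport, breakdown and chloride balance, 9 of 14 tested genes lay above 0, with a median of 0.11. The 2 with the smallest p are known from astrocytes: Glul, the glutamine synthetase gene, at 0.27 (SE 0.136, adjusted p = 0.881), and Slc6a11, the GABA transporter GAT3 gene, at 0.42 (SE 0.23, adjusted p = 0.889). The summed level of 8 astrocyte markers was 1110, 1590 and 1280 CPM in SCFA 1 to 3 and 797, 951 and 922 CPM in controls 1 to 3, with none at 0, and its part in the values of Glul and Slc6a11 was not tested. Genes listed for inhibitory synapses, not all of them scaffold genes, had a median of 0.23 over 7 genes (0.13 without SCFA 2 and -0.01 without control 2). Among them, Nlgn2, the neuroligin of inhibitory synapses, measured 0.27 (SE 0.174) and Clptm1 0.25 (SE 0.179). Receptors for the peptides had a median of 0.11 over 9 tested genes, and the somatostatin receptor genes Sstr3 and Sstr4 measured 0.33 (SE 0.284) and 0.36 (SE 0.331). Peptide processing and secretion genes had a median of -0.02 over 9 tested genes. In 2 of them the groups separated, with SCFA higher. Cpe, the carboxypeptidase gene that trims prohormones, measured 1480, 1850 and 1720 CPM in SCFA 1 to 3 and 1230, 1210 and 1330 CPM in controls 1 to 3 (log2 fold change 0.42, SE 0.131, adjusted p = 0.864). Chga, the chromogranin A gene of dense-core vesicles, measured 62.2, 87.3 and 51.8 CPM in SCFA 1 to 3 and 45.7, 42.4 and 44.4 CPM in controls 1 to 3 (log2 fold change 0.60, SE 0.202, adjusted p = 0.864).

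Markers of other tissues were read beside the peptide and GABA genes, since several of these are made elsewhere too. Of the 15 striatal genes, Ido1 was at 0. Penk, the enkephalin gene, measured 26.7, 130 and 23.8 CPM in SCFA 1 to 3 and 29.1, 27.9 and 26.6 CPM in controls 1 to 3. SCFA 2 was thus the high library for Penk. The part of striatal RNA in the high values of Slc32a1, Npy, Sst and Gad2 in SCFA 2 was not tested. Exocrine pancreas genes, 12 with none at 0, summed to 2.61, 0.825 and 1.94 CPM in SCFA 1 to 3 and to 214, 378 and 37.0 CPM in controls 1 to 3. Of the 11 tested, 8 were called lower, where 9 of all 11969 tested genes were. The lists were chosen with earlier results of these data known, so such counts are no separate support. Genes of the pancreatic islet, where delta cells make somatostatin, summed to 0.0688 to 0.209 CPM in SCFA libraries and 0.1 to 0.243 CPM in controls. Of these 10 genes 7 were at 0, among them Ins1, with 1 transcript row, and Ins2 and G6pc2, with 3 rows each, whose counts of 0 are not read as absence. Hypothalamic genes, where Pomc was the 1 of 9 at 0, summed to 0.521 to 1.25 CPM in SCFA libraries and 0 to 1.13 CPM in controls. Intestinal genes, 5 with none at 0, summed to 0.481 to 1.88 CPM in SCFA libraries and 0.501 to 14.8 CPM in controls. Thalamic genes, with Tnnt1 at 0, summed to 18.8 to 24.0 CPM in SCFA libraries and 14.8 to 33.5 CPM in controls. The 4 hippocampal genes, none at 0, summed to 2.19 to 4.24 CPM in SCFA libraries and 4.13 to 15.6 CPM in controls. Microglia genes, 10 with none at 0, summed to 602, 928 and 606 CPM in SCFA 1 to 3 and 352, 473 and 374 CPM in controls 1 to 3. Of these 10 genes 1 was called higher, the only gene called higher of all 11969 tested. Oligodendrocyte genes summed to 86.6 to 129 CPM in SCFA libraries and 83.1 to 120 CPM in controls.

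**Figure D5:**
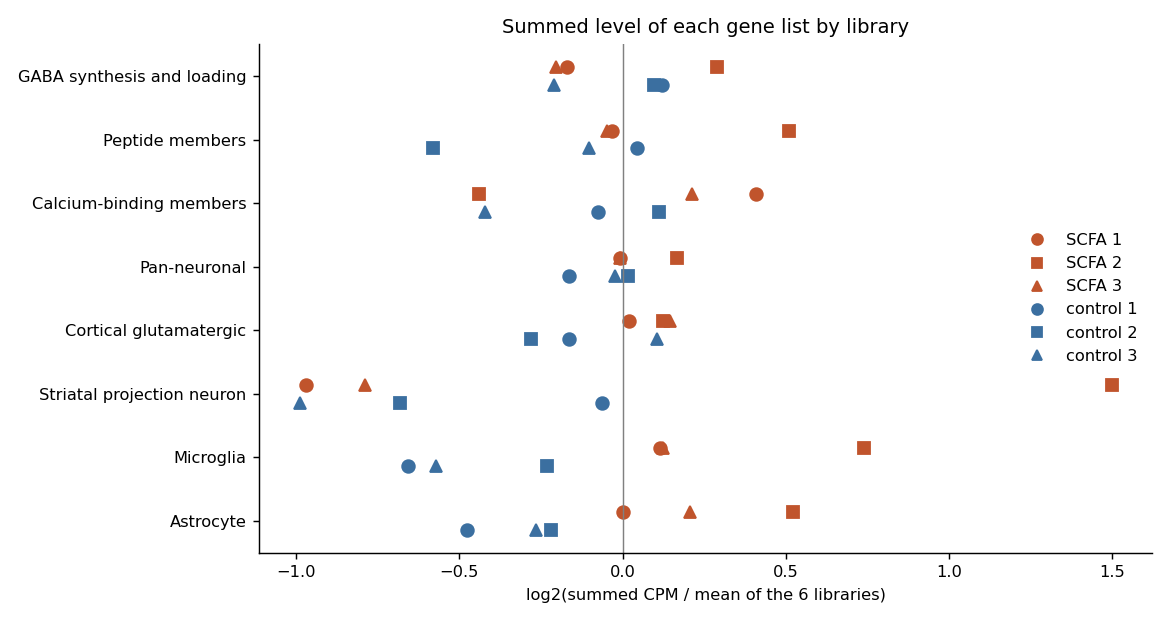
Summed CPM of gene lists in each library, as log2 of the ratio to the mean of the 6 libraries (x axis); orange markers above each line are SCFA libraries and blue markers below it controls, with the shape giving the replicate. Striatal genes are highest in SCFA 2 (416 CPM, against 74.1 to 141 CPM elsewhere), the library that is also highest in the summed GABA and peptide genes (245 and 159 CPM). The calcium-binding sum is lowest there through Pvalb, at 43.7 CPM beside 44.2 CPM in control 3. The pan-neuronal (3710 CPM), astrocyte (1590 CPM) and microglia (928 CPM) sums are also highest in SCFA 2. The cortical glutamatergic sum is highest in SCFA 3 (1450 CPM).

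Genes whose profile was most like that of a tested gene were ranked by the mean absolute difference of centred log2 CPM over the 6 libraries, among 8039 other genes with at least 5 CPM. For Slc32a1 they were Trf (0.0354 log2 units) and Antxr1 (0.0554), where the median over all candidates was 0.443. For Npy they were Pomk (0.0356) and Bcan (0.0378), and for Sst Dtd1 (0.0426) and Lrrc8b (0.0527). For Gad2 they were Cacna1e (0.0382) and Wdr18 (0.0446), and for Gad1 Taldo1 (0.0415) and Sh3d19 (0.0553). The nearest profiles to Pvalb, Rmdn3 (0.0972) and Zdhhc15 (0.106), and to Calb2, Mvp (0.177) and Abcd4 (0.196), lay farther off. With 6 libraries and so many candidates, close profiles arise readily, and nothing beyond the likeness is read from them.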

How the data were processed

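Total RNA from snap-frozen cortex (RNeasy Mini) was made into libraries with the Ovation Human FFPE RNA-Seq kit, per the labels' protocols. The authors deposited raw counts per RefSeq transcript row, 34755 rows for 6 libraries. CASAVA 1.8.2, featureCounts and build mm10 are named in the submitters' processing notes, and the aligner, strand setting and treatment of shared reads were not given in the sources used here. RefSeq (GRCm38.p6) paired 34424 rows (99.05%) with a symbol, and rows were summed per symbol. Unmatched rows, among them the largest (35.0% to 55.3% of counts), were kept as separate entries. They counted in the library sizes and, where they passed the filter, among the tested genes. Exon bases are from GENCODE M21.

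The test across genes was that of edgeR 4.0.16, run in R 4.3.3 (filterByExpr with minimum count 10 and total 15, TMM, quasi-likelihood F test, 2 groups of 3, Benjamini-Hochberg over 11969 genes, threshold 0.05), after a check on simulated data. The SE is the log2 fold change divided by the square root of F. Log2 CPM used a prior count of 2. Counting intervals cover counting error only, as reads are not independent molecules. DESeq2 1.42.0, limma 3.58.1 (voom), other scalings and filters, the replicate block and left-out libraries were alternatives.

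The 10 genes and the lists were chosen with earlier results of these data known. Named genes were all 10, the 2 of each pathway list with the smallest p, up to 2 of each marker list with the highest level, and the 2 nearest profiles. The ratios to Gad2 and the list medians with libraries left out were added later. Values of some genes that these rules name are not reported here.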

Additional observations from a re-analysis of the deposited data

How the results depend on the processing

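None of the 7 tested genes was called under any alternative run, with edgeR, DESeq2 or limma-voom; the lowest adjusted p was 0.401, for Slc32a1 without a low-count filter. Of 120 fold changes recomputed, 113 kept their direction and 7 reversed, in Sst, Pvalb and Gad2: Sst was -0.09 without SCFA 2 and control 2, Gad2 was 0.14 with total-count scaling, and leaving out 1 library gave -0.09 to 0.43 for Pvalb and -0.20 to 0.04 for Gad2. The cause was not tested. With total counts as scaling the median of all genes was 0.18, against 0.01 in the main test, and that of the 7 genes was 0.45. With the largest row and structural RNA removed, the median of the 7 was 0.30. Without SCFA 2 and control 2 the median of the 7 was 0.10, and leaving out 1 library gave 0.21 to 0.41. Relative to pan-neuronal genes, leaving out 1 library gave -0.09 to 0.43 for Sst, -0.24 to 0.36 for Pvalb, 0.12 to 0.44 for Npy, 0.15 to 0.85 for Calb2 and 0.35 to 0.81 for Slc32a1. List medians without SCFA 2, without control 2 or without both, added after the data were seen, ran from -0.01 to 0.03 for other interneuron markers (-0.11 in the main test), 0.04 to 0.21 for GABA transport (0.11), 0.00 to 0.24 for peptide receptors (0.11) and -0.06 to 0.08 for peptide processing (-0.02). Over all genes, 1 was higher and 9 lower in the main test, 30 and 25 without a filter, 14 and 17 with DESeq2, 0 and 0 with limma-voom (805 at an unadjusted p under 0.05), 14 and 11 without SCFA 2 and control 2, and 0 to 8 higher and 0 to 13 lower with 1 library left out (382 to 826 at an unadjusted p under 0.05). A fit with the replicate block called 10 higher and 12 lower and put Slc32a1 at 0.70. Deviations of libraries that share a number correlated at -0.00206, 0.0101 and -0.00525. These values gave no sign of pairing by number, but with so few libraries they cannot exclude it. Depth limits Calb2 most, at 33 to 151 counts per library.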
